A study of Mus musculus with 6 samples.

Results

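Nrtn, Penk, Egf, Cdnf and Chil1 encode secreted signal or carrier proteins whose transcript levels in mouse heart lay far apart between double knockout (DKO) and wild type (WT) libraries. They were picked by symbol, as 5 of the 24525 gene rows of the deposited expression table, because of how they differed between DKO and WT in these same libraries. Their own differences are therefore given as a description, with no test. All 5 were present under these symbols, and all 5 passed the expression filter of at least 1 TPM (a transcript level scaled by transcript length and by the library's total) in at least 3 libraries. Chil1 passed it only through DKO, with 3 DKO and 0 WT libraries at 1 TPM or more.

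The study profiled total RNA of hearts from mice aged 3 to 6 months in 6 libraries, 3 DKO (replicates 7, 8 and 9) and 3 WT (replicates 4, 5 and 6). Per the labels, DKO mice were Mbnl1-/-; Mbnl2cond/cond; Myh6-Cre+/-, so Mbnl1 was null in every cell, while Mbnl2 was conditional and deleted by a Cre recombinase that the Myh6 promoter drives in cardiomyocytes. The labels call the other group WT, and whether it carried the conditional alleles or Cre is not given in the sources used here. MBNL proteins regulate alternative splicing, and the comparison asks which heart transcripts differ when both genes are targeted. The labels disagree on replicate 7: its genotype tag reads WT, while its title and source name read DKO, and the title placed it in DKO.

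Neurturin (Nrtn) is a ligand of the GDNF family, which signals through a GFRA co-receptor and the RET kinase, and it is known for supporting the parasympathetic nerves of the heart. Preproenkephalin (Penk) is cut into short opioid peptides, epidermal growth factor (Egf) is released from a membrane-anchored precursor and binds the receptor kinase EGFR, and CDNF is a small protein of the endoplasmic reticulum with neurotrophic activity, related to MANF. Chil1 encodes a chitinase-like glycoprotein that binds chitin without cutting it and is made by activated macrophages and other cells during inflammation. What the 5 share, beyond the rule that chose them, is entry into the secretory pathway.

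One Penk transcript spells an enkephalin 7 times, and these copies are shown because the Penk level described here is that of all of them at once. In the Penk coding sequence (GENCODE M21, chromosome 4), which is 807 bases long with its stop codon, 6 stretches spelled Met-enkephalin and 1 spelled Leu-enkephalin. Capitals mark the 15 bases of the peptide, and the 6 bases on either side are in lower case.
Penk copy 1, Met-enkephalin: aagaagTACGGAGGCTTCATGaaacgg
Penk copy 2, Met-enkephalin: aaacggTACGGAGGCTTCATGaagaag
Penk copy 3, Met-enkephalin: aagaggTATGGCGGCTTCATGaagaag
Penk copy 4, Met-enkephalin: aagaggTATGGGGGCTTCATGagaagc
Penk copy 5, Met-enkephalin: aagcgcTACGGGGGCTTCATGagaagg
Penk copy 6, Leu-enkephalin: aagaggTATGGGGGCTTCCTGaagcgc
Penk copy 7, Met-enkephalin: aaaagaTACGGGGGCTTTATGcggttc
The 7 copies used 6 different spellings. Each was preceded by a codon pair for basic residues, where prohormone convertases cut, and 5 were also followed by such a pair. Copies 4 and 7 were not, so their labels name the bases in capitals and not a released peptide.

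The 250 bases before the RefSeq start of 4 of the genes (GRCm38.p6, each read along its gene's own strand) are shown so that the direction of each difference can be set beside what lies at the start site. Capitals mark matches to CCAAT or to the GC box GGGCGG on either strand. TATAAA was also searched, and no 2 matches overlapped.
Cdnf, chr2:3512815-3513064, plus strand: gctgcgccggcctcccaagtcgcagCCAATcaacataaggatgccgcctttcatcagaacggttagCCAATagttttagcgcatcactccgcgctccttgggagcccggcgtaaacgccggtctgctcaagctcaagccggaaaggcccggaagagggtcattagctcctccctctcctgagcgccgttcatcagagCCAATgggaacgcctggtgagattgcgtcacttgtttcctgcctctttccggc
Egf, chr3:129755323-129755572, minus strand: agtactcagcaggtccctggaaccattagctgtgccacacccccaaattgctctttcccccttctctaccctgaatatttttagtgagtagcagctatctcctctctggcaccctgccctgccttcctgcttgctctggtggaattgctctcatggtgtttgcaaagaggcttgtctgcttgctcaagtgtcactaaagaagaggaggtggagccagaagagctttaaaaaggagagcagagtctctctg
Nrtn, chr17:56757549-56757798, minus strand: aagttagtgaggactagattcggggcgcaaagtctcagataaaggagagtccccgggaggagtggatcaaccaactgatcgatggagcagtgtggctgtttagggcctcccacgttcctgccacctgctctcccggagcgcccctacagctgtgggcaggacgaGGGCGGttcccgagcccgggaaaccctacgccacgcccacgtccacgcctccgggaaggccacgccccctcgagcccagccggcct
Chil1, chr1:134181906-134182155, plus strand: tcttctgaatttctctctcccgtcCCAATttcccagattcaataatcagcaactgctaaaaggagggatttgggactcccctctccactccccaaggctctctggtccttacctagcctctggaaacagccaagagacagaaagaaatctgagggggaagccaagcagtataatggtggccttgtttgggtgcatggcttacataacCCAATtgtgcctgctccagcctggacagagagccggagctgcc
The Cdnf stretch held 3 CCAAT matches and 19 CG dinucleotides, and the Nrtn stretch held 1 GC box and also 19 CG dinucleotides. The Chil1 stretch held 2 CCAAT matches and 2 CG dinucleotides, and the Egf stretch held no match and 0 CG dinucleotides. None of the 4 stretches held TATAAA. Over 32851 promoters of the same length, the median was 6 CG dinucleotides, 33.8% held CCAAT, 32.7% held GGGCGG and 12.4% held TATAAA. The genes that were higher in DKO, Nrtn and Chil1, thus lay on opposite sides of the median for CG content. So did the lower genes Cdnf and Egf, but only at the Egf start shown. A second RefSeq start of Egf, not shown, had 15 CG dinucleotides before it and lay above the median, as Cdnf did. The lower gene Penk had no entry in the promoter set used.

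Totals per library lay between 999963 and 999991 TPM, and 14084 to 14623 genes reached 1 TPM. TPM keeps no read counts, and sequencing depth is unknown. Mbnl1 had 102 to 108 TPM in DKO against 145 to 161 TPM in WT, and Mbnl2 had 227 to 245 TPM in DKO against 149 to 189 TPM in WT (log2 differences -0.55 and 0.49; limma, BH adjusted p = 0.00673 and 0.0232). These levels sum all exons and all cells, so they do not check either deletion. Xist reached 152 TPM in DKO 7 and 174 TPM in DKO 8, whereas DKO 9 and the 3 WT libraries had 163 to 179 TPM summed over 4 Y-linked genes. Sex and genotype therefore overlap in part. Over the tested genes, DKO 7 correlated with DKO 8 and DKO 9 at a Pearson r of at least 0.9512 and with WT libraries at no more than 0.9392. The lowest r within WT was 0.9414 and the highest between the groups was 0.9442, so r did not sort every pair by group. Of 14541 genes tested, 1560, or 10.7%, passed at an adjusted p under 0.05 (limma, Benjamini-Hochberg), 946 of them higher (6.51%) and 614 lower (4.22%) in DKO. The split was 906 higher and 845 lower with median-ratio scaling and 880 higher and 817 lower with quantile scaling. At an unadjusted p under 0.05 there were 3921 genes, or 27.0% of those tested.

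Nrtn and Chil1 were higher in DKO, and Penk, Egf and Cdnf were lower. In each of the 5 genes the 3 DKO values lay wholly above or wholly below the 3 WT values, which was also true of 33.0% of all genes tested and is what the genes were chosen for. Replicate 7, counted as DKO in that choice, therefore lay on the DKO side in all 5, which says nothing about its label. Because RNA came from heart tissue and not from sorted cells, fewer cells of a type and less RNA per cell cannot be told apart.

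Nrtn (chr17:56751323-56757548) had 70.4, 75.6 and 82.3 TPM in DKO 7, 8 and 9, against 20.1, 19.8 and 16.4 TPM in WT 4, 5 and 6. It averaged 76.1 ± 5.98 TPM in DKO and 18.8 ± 2.08 TPM in WT (SD, n = 3 each), a 4.06-fold ratio and a log2 difference of 1.97 (SE 0.11) on the log2(TPM + 1) scale. Every SE of a log2 difference given here is the moderated SE of the limma fit, whose variance is drawn partly from all genes tested. The Nrtn replicates were the tightest of the 5 genes, and the gene was well above the filter in both groups, so it was detected in both groups. Relative to the other genes of a library, it stood at the 92.3rd to 93.2nd percentile in DKO and the 70.2nd to 74.6th in WT.

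Chil1 (chr1:134182156-134190031) was the gene nearest to absent in WT. It had 11.5, 11.1 and 4.68 TPM in DKO 7, 8 and 9, whereas it was listed at 0 in WT 4 and had 0.452 and 0.444 TPM in WT 5 and 6. The means were 9.08 ± 3.82 TPM in DKO and 0.298 ± 0.259 TPM in WT, a 30.4-fold ratio and a log2 difference of 2.89 (SE 0.35). DKO 9 had less than the other DKO libraries and still far more than any WT library. The ratio rests on WT values under 1 TPM and was 20.3 without WT 4, 40.9 without WT 5 and 40.2 without WT 6.

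Penk (chr4:4133536-4138815) had 0.536, 1.003 and 3.10 TPM in DKO 7, 8 and 9, against 14.0, 13.7 and 7.53 TPM in WT 4, 5 and 6. It averaged 1.55 ± 1.37 TPM in DKO and 11.7 ± 3.64 TPM in WT, with a log2 difference of -2.40 (SE 0.40). It varied the most of the 3 lower genes, and DKO 9 and WT 6 lay nearest to each other. The WT mean was 7.58 times the DKO mean, and 15.2 times without DKO 9.

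Egf (chr3:129677574-129755322) had 1.42, 3.32 and 3.35 TPM in DKO 7, 8 and 9, against 16.4, 13.1 and 14.1 TPM in WT 4, 5 and 6. The means were 2.70 ± 1.10 TPM in DKO and 14.5 ± 1.69 TPM in WT, a log2 difference of -2.12 (SE 0.25), and the WT mean was 5.39 times the DKO mean. DKO 7 was the lowest library, and DKO 8 and DKO 9 were alike.

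Cdnf (chr2:3513065-3526376) had 3.76, 4.99 and 5.71 TPM in DKO 7, 8 and 9, against 25.0, 23.4 and 31.7 TPM in WT 4, 5 and 6. It averaged 4.82 ± 0.988 TPM in DKO and 26.7 ± 4.41 TPM in WT, a log2 difference of -2.25 (SE 0.18), and the WT mean was 5.54 times the DKO mean. The gap between the groups is what the gene was chosen for, so its size against the spread is no test. Cdnf stood at the 50.7th to 54.3rd percentile of a library in DKO and the 77.5th to 82.2nd in WT.

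**Figure D1:**
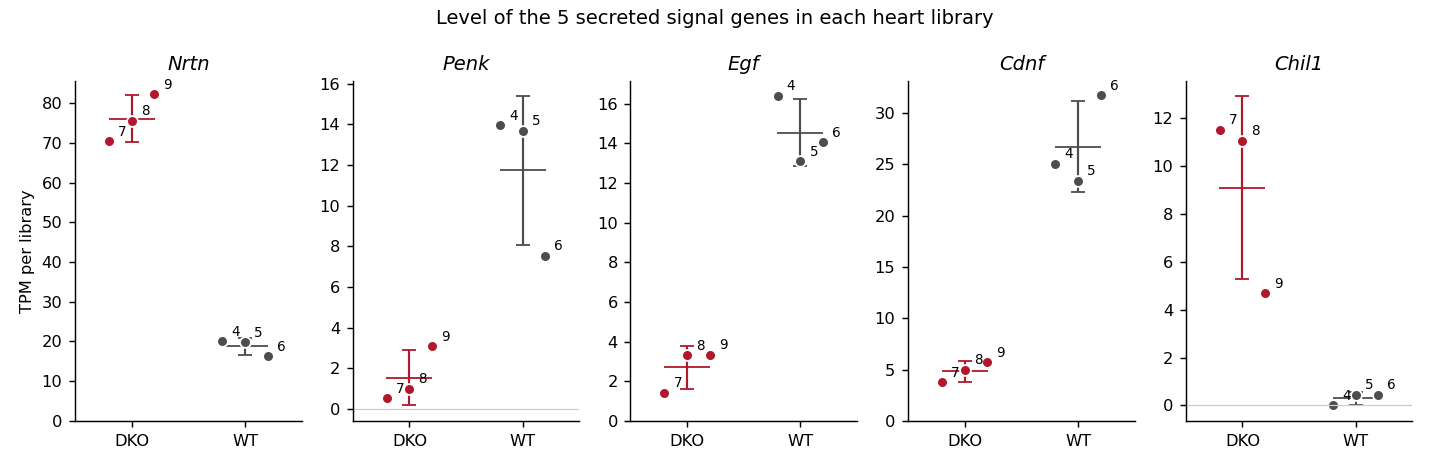
TPM of Nrtn, Penk, Egf, Cdnf and Chil1 in each library (points, numbered by replicate), with the group mean and SD (n = 3 each) for DKO and WT. DKO points lie above every WT point for Nrtn and Chil1 and below every WT point for Penk, Egf and Cdnf, with the widest DKO spread relative to the mean in Penk.

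Ordered by mean level, the DKO hearts gave Nrtn (76.1 TPM), Chil1 (9.08 TPM), Cdnf (4.82 TPM), Egf (2.70 TPM) and Penk (1.55 TPM). In DKO, Chil1 and Cdnf overlapped in their spread, as did Egf and Penk. The WT hearts gave Cdnf (26.7 TPM), Nrtn (18.8 TPM), Egf (14.5 TPM), Penk (11.7 TPM) and Chil1 (0.298 TPM). In WT, Egf overlapped with Penk and, by a small margin, with Nrtn, while Cdnf lay above Nrtn in each library.

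Leaving out any 1 library could not change the direction of the 5 genes, because their groups did not overlap. The log2 difference then lay between 1.88 and 2.02 for Nrtn, 2.69 and 3.26 for Chil1, -2.81 and -2.10 for Penk, -2.26 and -1.84 for Egf, and -2.36 and -2.12 for Cdnf. With DKO 9 as the DKO library, so that all libraries had Y-linked transcripts, the differences were 2.08 for Nrtn, 2.15 for Chil1, -1.59 for Penk, -1.83 for Egf and -2.03 for Cdnf. Penk, Chil1, Cdnf and, by a small margin over DKO 8, Egf were nearest to WT in DKO 9, and Nrtn was farthest from WT there. Since DKO 9 is the only DKO library with Y-linked transcripts, sex and a single library cannot be told apart here.

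**Figure D2:**
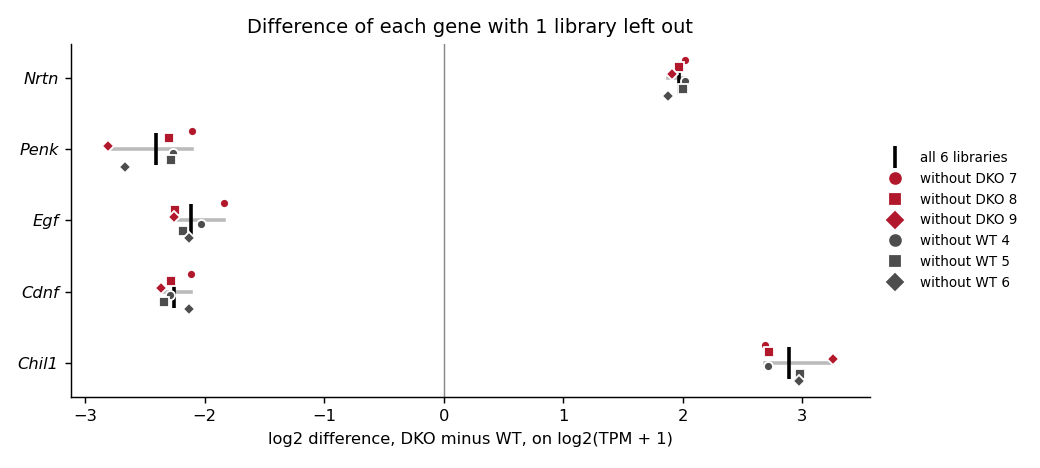
Log2 difference (DKO minus WT, log2(TPM + 1)) of each gene with all 6 libraries (black bar) and with each library left out (DKO in red, WT in grey). Nrtn moves least, from 1.88 to 2.02, and Penk most, from -2.81 to -2.10.

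Nrtn took nearly all of the GDNF-type ligand RNA in either genotype. Of the summed TPM of Nrtn, Gdnf, Artn and Pspn it held 96.5% to 98.4% in DKO and 95.0% to 99.0% in WT, while the family sum was 72.9 to 83.9 TPM in DKO and 16.9 to 21.2 TPM in WT. Gdnf, the founding ligand, had 2.56, 1.19 and 1.13 TPM in DKO against 0.283, 0.209 and 0.512 TPM in WT and was not called (log2 difference 0.94, SE 0.27; limma, BH adjusted p = 0.0764). Gdnf passed the filter only through DKO, with every WT library under 1 TPM. Artn and Pspn each had 1 library above 0 and were not tested. Gdf15, a stress-induced cytokine that signals through GFRAL and RET in the brainstem, rose to 12.6 ± 6.07 TPM in DKO, against 1.15 ± 0.535 TPM in WT (log2 difference 2.57, SE 0.39; limma, BH adjusted p = 0.0115).

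On the receiving side of this pathway, the kinase Ret fell to 1.13 ± 0.295 TPM in DKO, against 3.59 ± 0.733 TPM in WT (log2 difference -1.11, SE 0.21; limma, BH adjusted p = 0.0226). Gfra2, the preferred co-receptor of neurturin, had 3.63 ± 1.07 TPM in DKO and 2.55 ± 0.293 TPM in WT, with no call (limma, BH adjusted p = 0.344). Gfra1 (6.83 ± 2.04 TPM in DKO and 7.61 ± 0.772 TPM in WT), Gfra3 and Gfra4 were not called either, with adjusted p from 0.308 to 0.904 (limma, BH). Ncam1, an adhesion molecule that also binds GDNF ligands, rose to 14.9 ± 2.88 TPM in DKO, against 4.84 ± 1.11 TPM in WT (log2 difference 1.44, SE 0.21; limma, BH adjusted p = 0.0096). Sdc3, a heparan sulphate proteoglycan, had a limma BH adjusted p of 0.0874 and no call, and Gfral was listed at 0 in all 6 libraries. Of 12 listed genes without Nrtn, 9 were tested, 2 were higher and 1 was lower, a share of 33.3% against 10.7% of all genes, with a median log2 difference of 0.36 against 0.03 over all genes. This list was drawn up with earlier results of these data known, so the share is a description. The Ret call was lost without WT 5, WT 6, DKO 7, DKO 8 or DKO 9 (adjusted p up to 0.0686), and those of Gdf15 and Ncam1 were kept in all 6 such fits.

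Glial and nerve markers were low in both groups. The summed TPM of 6 Schwann cell and neuron markers was 9.04 to 15.3 in DKO and 14.1 to 21.01 in WT, with 0 of 3 tested members called (limma; 0 at an unadjusted p under 0.05) and Th at 0 in all libraries.

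Penk had the highest TPM of the 4 opioid precursors in all 3 WT libraries and in DKO 9, and was below Pomc and Pnoc in DKO 7 and DKO 8. It held 11.3%, 13.6% and 41.3% of the TPM of the 4 precursors in DKO 7, 8 and 9, against 78.5%, 84.2% and 68.6% in WT 4, 5 and 6. The other precursors summed to 4.197 to 6.35 TPM in DKO and 2.56 to 3.82 TPM in WT, with Pomc, the precursor of beta-endorphin, at 3.13 ± 0.813 TPM in DKO and 1.55 ± 0.737 TPM in WT (limma, BH adjusted p = 0.154). Pdyn was listed at 0 throughout.

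Among opioid receptors, Oprd1, the delta receptor for enkephalins, rose to 2.55 ± 0.527 TPM in DKO, against 0.878 ± 0.229 TPM in WT (log2 difference 0.91, SE 0.21; limma, BH adjusted p = 0.0391). Ogfr, the opioid growth factor receptor that binds Met-enkephalin, had 40.2 ± 4.45 TPM in DKO and 29.3 ± 2.75 TPM in WT and missed the threshold (limma, BH adjusted p = 0.0534). The scavenger receptor Ackr3 had a limma BH adjusted p of 0.568 and no call, and the mu, kappa and nociceptin receptors Oprm1, Oprk1 and Oprl1 did not pass the filter. Of the enzymes that trim or cut the precursor, the carboxypeptidase Cpe had 220 ± 21.2 TPM in DKO and 229 ± 8.11 TPM in WT with no call (limma, BH adjusted p = 0.701), while the protease Ctsl rose to 106 ± 8.92 TPM in DKO, against 74.3 ± 11.7 TPM in WT (log2 difference 0.52, SE 0.13; limma, BH adjusted p = 0.048). The convertases Pcsk1 and Pcsk2 stayed under 1 TPM in every library. In all, 12 of 18 listed genes were tested, 2 were higher and 0 lower, a share of 16.7% against 10.7% of all genes, and 5 had an unadjusted p under 0.05. The calls of Oprd1 and Ctsl were lost without any 1 of the 6 libraries, with adjusted p up to 0.127 and 0.137. With pseudocount 0.1 both were lost too (adjusted p = 0.0522 and 0.0508), and Oprd1 was lost with quantile scaling (adjusted p = 0.0515).

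Egf was lower in DKO within a ligand family whose summed level differed far less. Egf held 4.76%, 9.47% and 9.85% of the TPM of 11 ErbB ligands in DKO 7, 8 and 9, against 41.2%, 36.0% and 35.8% in WT 4, 5 and 6. The family sum was 29.9 to 35.0 TPM in DKO and 36.4 to 39.8 TPM in WT, and without Egf it was 28.5 to 31.7 TPM in DKO and 23.3 to 25.3 TPM in WT. Nrg1, a ligand of ERBB4 known from heart development, rose to 3.10 ± 0.357 TPM in DKO, against 1.06 ± 0.185 TPM in WT (log2 difference 0.99, SE 0.18; limma, BH adjusted p = 0.0211). Hbegf, another EGFR ligand, had 15.7 ± 0.222 TPM in DKO and 11.6 ± 3.12 TPM in WT (limma, BH adjusted p = 0.189).

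The 4 ErbB receptors were all measured, and none was called. Egfr had 10.6 ± 1.70 TPM in DKO and 9.09 ± 1.14 TPM in WT, and Erbb2 had 10.8 ± 1.36 TPM in DKO and 8.32 ± 0.828 TPM in WT. Erbb3 had 9.34 ± 1.88 TPM in DKO and 10.5 ± 1.90 TPM in WT, and Erbb4, the neuregulin receptor of cardiomyocytes, had 8.11 ± 1.04 TPM in DKO and 10.3 ± 1.15 TPM in WT. Adjusted p for the 4 lay between 0.181 and 0.627 (limma, BH), and only Erbb2 had an unadjusted p under 0.05. Among feedback regulators, Errfi1, an inhibitor of EGFR, fell to 15.5 ± 1.51 TPM in DKO, against 25.0 ± 5.14 TPM in WT (log2 difference -0.64, SE 0.16; limma, BH adjusted p = 0.0465). Spry2, an antagonist of receptor kinase signalling, rose to 49.3 ± 7.54 TPM in DKO, against 32.4 ± 0.821 TPM in WT (log2 difference 0.58, SE 0.12; limma, BH adjusted p = 0.0269). Of 24 listed genes, 21 were tested, 2 were higher and 1 lower, a share of 14.3% against 10.7% of all genes, with a median log2 difference of 0.09. Errfi1 was not called without any 1 of the 6 libraries (adjusted p up to 0.124). The Spry2 call was lost without WT 4, WT 5, WT 6, DKO 8 or DKO 9 (adjusted p up to 0.0825), and the Nrg1 call without WT 5, WT 6, DKO 7 or DKO 8 (adjusted p up to 0.0782).

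Cdnf was lower in DKO, with no call in its sister gene or in the endoplasmic reticulum genes listed with it. Manf had 23.7, 23.01 and 17.97 TPM in DKO 7, 8 and 9, against 32.5, 18.3 and 37.9 TPM in WT 4, 5 and 6, and the groups overlapped (log2 difference -0.38, SE 0.26; limma, BH adjusted p = 0.406). Cdnf made up 13.7% to 24.1% of the pair's TPM in DKO and 43.5% to 56.1% in WT. The chaperone Hspa5 had 446 ± 24.7 TPM in DKO and 609 ± 195 TPM in WT (limma, BH adjusted p = 0.275). Nptn, reported as a MANF receptor, and the retrieval receptors Kdelr1, Kdelr2 and Kdelr3 were not called, with adjusted p from 0.202 to 0.453 (limma, BH). All 13 listed genes other than Cdnf were tested, 0 were higher and 0 lower (limma), 1 had an unadjusted p under 0.05, and the median log2 difference was -0.07. Of all genes tested, 10.7% were called, and with so few listed genes 0 calls lies near that share.

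Chil1 was higher in DKO within a family with no called gene among the others tested. Chid1, Ctbs and Ovgp1 were tested and not called, with adjusted p from 0.165 to 0.904 (limma, BH), and Chit1, the neighbouring true chitinase, was listed at 0 in all libraries. Chil3, a chitinase-like gene of alternatively activated mouse macrophages, had 0.249, 1.55 and 0.958 TPM in DKO 7, 8 and 9 and was listed at 0 in all 3 WT libraries. Chil1 held 14.9% to 35.1% of the TPM of the 8 family genes in DKO and 0% to 2.29% in WT.

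Of the receptor genes listed with Chil1, 2 of the 4 tested rose, where 6.51% of all genes were called higher. Cd44, the hyaluronan receptor, rose to 20.6 ± 2.18 TPM in DKO, against 7.66 ± 1.09 TPM in WT (log2 difference 1.32, SE 0.14; limma, BH adjusted p = 0.00469). Il13ra1, a chain of the interleukin receptor complex, rose to 70.3 ± 5.86 TPM in DKO, against 39.0 ± 2.29 TPM in WT (log2 difference 0.83, SE 0.09; limma, BH adjusted p = 0.00492). Il13ra2, the chain reported to bind the Chil1 product, was listed at 0 in the DKO libraries, stayed under 1 TPM in WT and was not tested. Its partner Tmem219 (limma, BH adjusted p = 0.479) and Lgals3 (11.03 ± 1.25 TPM in DKO and 5.18 ± 4.05 TPM in WT; limma, BH adjusted p = 0.131) were not called. Of 13 listed genes, 7 were tested, 2 were higher and 0 lower, a share of 28.6% against 10.7% of all genes, and 4 had an unadjusted p under 0.05. Both calls were kept in all 6 fits that left out 1 library.

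Macrophage marker sums, like Chil1, were higher in all 3 DKO libraries than in any WT library. The summed TPM of 6 macrophage markers was 394, 320 and 279 in DKO 7, 8 and 9, against 164, 122 and 192 in WT 4, 5 and 6, and 3 of 6 (Adgre1, C1qa and C1qb) passed as higher (limma, BH). The summed TPM of 6 neutrophil markers was 58.8, 34.4 and 13.3 in DKO 7, 8 and 9, against 8.67, 10.2 and 5.34 in WT 4, 5 and 6, with 0 of 3 tested members called (limma; 2 at an unadjusted p under 0.05) and the defining marker Ly6g at 0 in all libraries. DKO 9, the DKO library with the least Chil1, also had the least of both sums among DKO, while WT 5, with 0.452 TPM of Chil1, had the least macrophage marker TPM among WT. Fibroblast markers summed to 902 to 1067 TPM in DKO and 787 to 803 TPM in WT, with 3 of 6 higher. Cardiomyocyte markers summed to 35970 to 38530 TPM in DKO and 38120 to 40590 TPM in WT, so the defining markers of the tissue were present in all libraries. Of these 6, 1 was higher (Ttn) and 1 lower (Ryr2), and 5 had an unadjusted p under 0.05 (limma). The sum hides shifts in both directions. Myh6 had 10237 to 10885 TPM in DKO and 11409 to 12848 TPM in WT, whereas Actc1 had 11586 to 12520 TPM in DKO and 9572 to 11189 TPM in WT. Endothelial markers summed to 470 to 534 TPM in DKO and 528 to 593 TPM in WT, with 2 of 6 lower. Smooth muscle and pericyte markers summed to 491 to 552 TPM in DKO and 609 to 642 TPM in WT, which did not overlap, with 1 of 6 (Tagln) lower. Atrial markers summed to 2478 to 4198 TPM in DKO and 406 to 6743 TPM in WT. Nppa alone had 2188 to 3855 TPM in DKO and 242 to 4216 TPM in WT. Myl7 had 932, 39.4 and 320 TPM in WT 4, 5 and 6, against 82.9 to 172 TPM in DKO. Myl4 had 874, 67.8 and 295 TPM in WT 4, 5 and 6, against 105 to 161 TPM in DKO. Erythroid transcripts varied widely, with sums of 1781 to 6763 TPM in DKO and 6042 to 38460 TPM in WT. Of all genes tested, 6.51% were called higher and 4.22% lower. The part of these cell types in the values of the 5 genes was not tested.

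**Figure D3:**
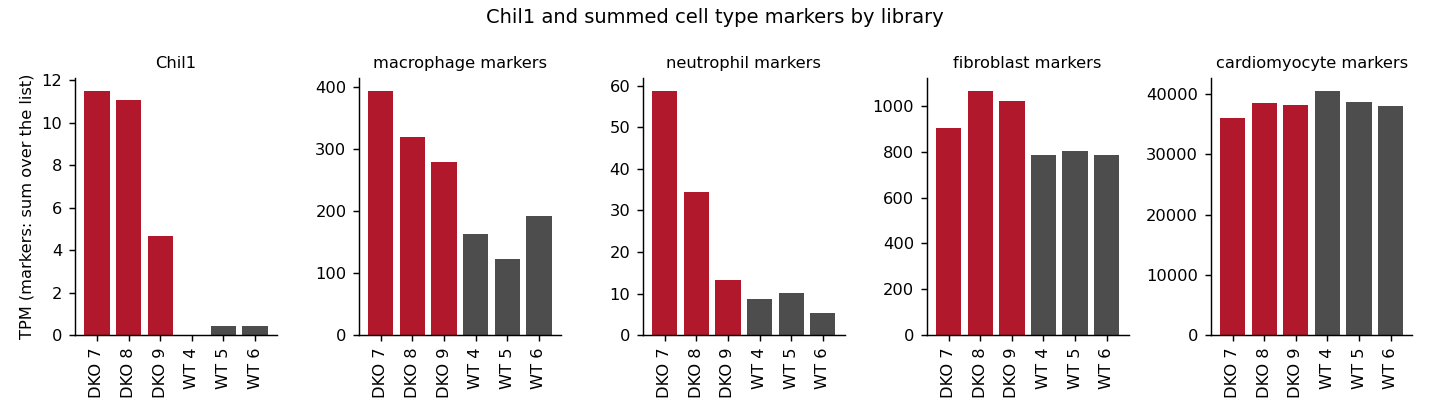
TPM of Chil1 and summed TPM of the macrophage, neutrophil, fibroblast and cardiomyocyte marker lists in each library (DKO in red, WT in grey). Chil1, macrophage and neutrophil bars are lowest among DKO libraries in DKO 9, while cardiomyocyte sums stay between 35970 and 40590 TPM.

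**Figure D4:**
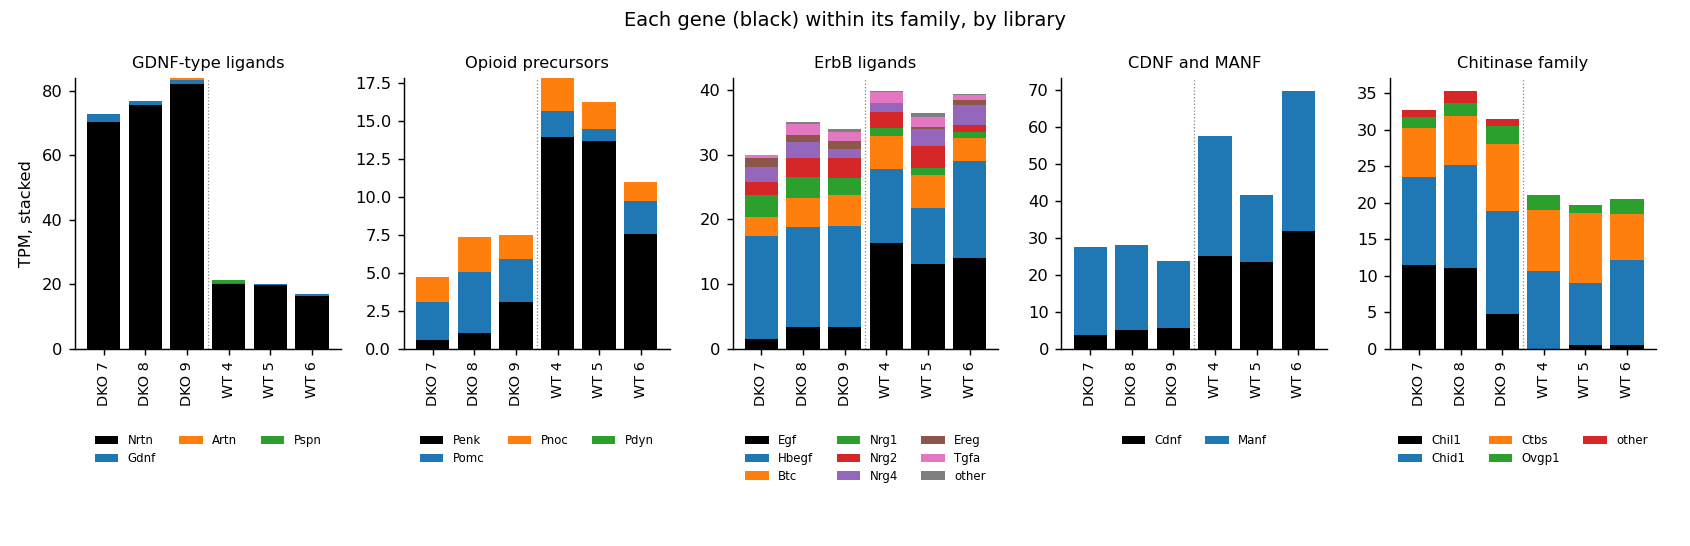
TPM of each of the 5 genes (black) stacked with the other members of its family, by library, with DKO left of the dotted line and WT right of it. Nrtn fills its family in both groups, whereas Egf makes up 4.76% to 9.85% of ErbB ligand TPM in DKO, against 35.8% to 41.2% in WT.

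Other neurotrophic factors were listed beside the GDNF family. The cardiotrophin Ctf1, a cytokine of the LIF receptor known from cardiomyocyte hypertrophy, fell to 3.16 ± 0.819 TPM in DKO, against 11.1 ± 0.549 TPM in WT (log2 difference -1.56, SE 0.18; limma, BH adjusted p = 0.00593). Ntf5, a ligand of the kinase TrkB, fell to 0.512 ± 0.0477 TPM in DKO, against 1.87 ± 0.142 TPM in WT (log2 difference -0.93, SE 0.19; limma, BH adjusted p = 0.0267). Ntf5 passed the filter only through WT, with every DKO library under 1 TPM. Its entry into the test thus depended on the group where it was high. The receptor Lifr fell to 48.9 ± 2.64 TPM in DKO, against 60.6 ± 0.539 TPM in WT (log2 difference -0.30, SE 0.07; limma, BH adjusted p = 0.0401), and the oncostatin receptor Osmr rose to 23.2 ± 1.57 TPM in DKO, against 16.4 ± 1.60 TPM in WT (log2 difference 0.48, SE 0.11; limma, BH adjusted p = 0.0379). Bdnf, a neurotrophin that also binds TrkB, had 9.98 to 13.04 TPM in DKO against 9.05 to 11.5 TPM in WT, with a limma BH adjusted p of 0.486. Of 18 listed genes, 14 were tested, 1 was higher and 3, Ntf5 among them, were lower, a share of 28.6% against 10.7% of all genes, with a median log2 difference of 0.07. Ctf1 was kept in all 6 fits that left out 1 library, while the calls of Ntf5, Lifr and Osmr were lost without any 1 of them (adjusted p up to 0.0932, 0.109 and 0.113).

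Over the 6 lists, 76 of 98 genes other than the 5 were tested, 9 were higher and 5 lower (Ntf5 included), a share of 18.4% against 10.7% of all genes. The lists were drawn up with earlier results of these data known, so their shares are descriptions and no test of enrichment. The genes entered as receptors in the lists of the 5 genes gave 4 higher (Ncam1, Oprd1, Il13ra1 and Cd44) and 1 lower (Ret) of 22 tested, a share of 22.7%. With a term for the libraries with Y-linked transcripts, 1 of the 14 calls remained, Il13ra1 (limma, BH adjusted p = 0.0442). That term leaves DKO 9 as the only DKO library set against WT, and the log2 differences of lost calls were 1.503 for Ncam1, 1.37 for Cd44 and 0.80 for Spry2 with it, against 1.44, 1.32 and 0.58 without it, and 1.73 for Gdf15, against 2.57 without it. With replicate 7 counted as WT 0 remained (limma; 12 higher and 1 lower at an unadjusted p under 0.05).

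**Figure D5:**
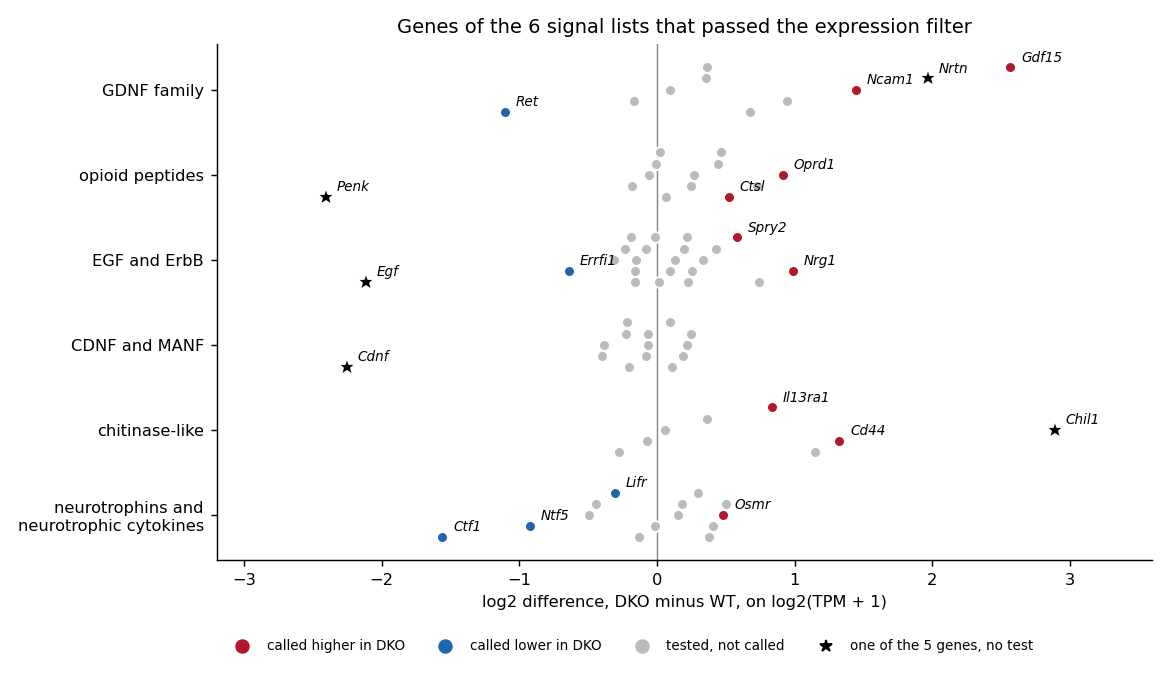
Log2 difference (DKO minus WT, log2(TPM + 1)) of every gene of the 6 lists that passed the filter. Red and blue points passed the test (9 higher, 5 lower), grey points did not, and stars are Nrtn, Penk, Egf, Cdnf and Chil1, which were not tested and lie between -2.40 and 2.89.

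Of the genes next to the 5 on the chromosome or overlapping them, Hspa14, Dus3l and Elovl6 were tested, and none was called. The others were not tested. The start of Hspa14, a ribosome-associated chaperone, lies 250 bases from the start of Cdnf, and the printed Cdnf stretch is exactly the interval between the 2 genes. Hspa14 had 25.2, 25.2 and 31.4 TPM in DKO 7, 8 and 9, against 24.9, 26.8 and 26.5 TPM in WT 4, 5 and 6 (log2 difference 0.06, SE 0.11; limma, BH adjusted p = 0.796), while Cdnf, on its other side, had 3.76 to 5.71 TPM in DKO against 23.4 to 31.7 TPM in WT. Beside Nrtn, Dus3l, a tRNA-modifying enzyme, had 20.2, 23.7 and 20.3 TPM in DKO and 20.3, 18.3 and 19.9 TPM in WT (limma, BH adjusted p = 0.486), and Fut4-ps1 stayed under 1 TPM.

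Beside Egf, Elovl6, an enzyme of fatty acid elongation, had a limma BH adjusted p of 0.734 and no call, and Lrit3 was 0 in 5 libraries. The noncoding 6330410L21Rik overlaps the start of Egf (its span begins at position 129753758 of chromosome 3), had 0.341 to 0.866 TPM in DKO and 0.555 to 0.737 TPM in WT, and whether its reads were told apart by strand is not given in the sources used here. Sdr16c6, next to Penk, was listed at 0 in all libraries. The noncoding Gm46158, not analysed here, reaches into the printed Chil1 stretch and ends 65 bases before Chil1. Beside Chil1, Mybph had 0.251 to 0.402 TPM in DKO and was listed at 0 in WT. Adora1, which overlaps the far end of Mybph and was chosen after its values were seen, encodes an adenosine receptor and rose to 14.3, 15.9 and 19.03 TPM in DKO, against 7.30, 4.33 and 5.89 TPM in WT (log2 difference 1.36, SE 0.20; limma, BH adjusted p = 0.01). Reads that cross from 1 gene into the next were not examined.

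Over the 6 libraries, the genes whose log2(TPM + 1) values followed each of the 5 most closely were also separated by group, so Pearson's r mainly reads the shared gap between DKO and WT. Nrtn was followed by Zfp992 (r = 0.9989), Akap9 (0.9987) and Rps4x (0.997), and Chil1 by Ccdc69 (0.9979), Rrm2 (0.9973) and Ptpn1 (0.9958). Rrm2, a subunit of ribonucleotide reductase, had 9.99, 9.57 and 5.91 TPM in DKO 7, 8 and 9, against 2.37, 3.06 and 2.84 TPM in WT 4, 5 and 6, and so shared the lower level of Chil1 in DKO 9. Penk was followed by Pspc1 (r = 0.9985), Mut (0.9984) and Asb14 (0.9976), of which Mut encodes the mitochondrial methylmalonyl-CoA mutase. Mut had 55.4, 61.1 and 70.1 TPM in DKO 7, 8 and 9, against 98.5, 98.2 and 86.2 TPM in WT 4, 5 and 6; in Mut as in Penk, DKO 9 was the highest DKO library and WT 6 the lowest WT library.

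Egf was followed by Plin5 (r = 0.9985), a lipid droplet protein of oxidative muscle, Zcchc24 (0.9979) and Acad12 (0.9975). Plin5 had 72.6, 85.2 and 85.1 TPM in DKO 7, 8 and 9, against 129, 125 and 127 TPM in WT 4, 5 and 6. Among the genes that followed Cdnf were Pex11a (r = 0.9962), a peroxisome division factor, and Etfdh (0.9953), which passes electrons from fatty acid oxidation to coenzyme Q. Pex11a had 9.79, 10.97 and 11.01 TPM in DKO 7, 8 and 9, against 28.9, 30.1 and 33.1 TPM in WT 4, 5 and 6. All these genes were picked as the highest of 14541 and share the same 6 libraries, so the r values are descriptions.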

How the data were processed

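The authors deposited 1 table of TPM values per gene and library, which per the submitters' processing notes came from bcl2fastq and kallisto 0.44.0 with the mm10 build. Neither the annotation nor the step from transcripts to genes is given in the sources used here. Per the labels, the kit kept strand and each fragment was read from both ends (75 bases). Because TPM is scaled to a fixed total, a shift in abundant RNA moves all other values, and depth is unknown.

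From the deposited TPM, genes reaching 1 TPM in 3 or more libraries were tested on log2(TPM + 1), a scale that understates changes of low genes, with limma 3.58.1 (lmFit, eBayes with trend, R 4.3.3) and Benjamini-Hochberg (BH) adjustment over all genes, at a threshold of 0.05. The code was tested on simulated data. The labels do not say whether libraries came from separate animals. The p-values thus cover the spread between libraries, which may be technical. The 5 genes, the gene lists and the naming rule were chosen with earlier results of these data known. Genes named are the 5, receptors that passed the filter, list genes past the threshold, neighbours and overlapping genes in RefSeq, and 3 genes per member with the highest Pearson r. Some genes that this rule or the lists hold are not reported here. Other listed genes are named where a sentence on their family needed them, chosen after their values were seen. Positions and promoter stretches are from RefSeq (GRCm38.p6), where all 5 symbols matched, and the Penk coding sequence is the longest open reading frame of a GENCODE M21 transcript. Alternatives changed the pseudocount, the filter, the scaling, the variance model, the sample weights, the genotype of replicate 7, a term for Y-linked transcripts, or left out libraries. Figures were drawn with matplotlib 3.10.9.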

Additional observations from a re-analysis of the deposited data

How the results depend on the processing

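All 5 genes kept their direction with the other scalings and with replicate 7 as WT. Their direction could not change with the other pseudocount, the Y-linked term or libraries alone, or any 1 library left out, because their groups did not overlap. The filters and the variance model do not enter their differences, Chil1 reached 5 TPM in fewer than 3 libraries, and array weights were not run for them. No listed call changed sign where it was tested. With pseudocount 0.1 the log2 differences were -3.12 for Penk, -2.48 for Egf and 4.78 for Chil1. With replicate 7 counted as WT they were 1.56 for Nrtn, 1.87 for Chil1, -1.35 for Penk, -1.17 for Egf and -1.48 for Cdnf, and the test over all genes gave 0 higher and 1 lower (limma; 1153 and 286 at an unadjusted p under 0.05), with 0 and 0 among the listed genes (12 and 1 unadjusted). A term for the libraries with Y-linked transcripts gave -1.59 for Penk and 2.15 for Chil1, 44 genes higher and 48 lower, and 1 and 0 among the listed genes (limma; 13 and 5 unadjusted). The libraries with Y-linked transcripts alone, with DKO 9 assumed to vary like WT, gave the same -1.59 and 2.15, 6 genes higher and 6 lower, and 0 and 0 listed genes (13 and 5 unadjusted). Lower listed genes numbered 3 with a 5 TPM filter and 3 without trend, where 397 of all genes were lower. Leaving out 1 library gave 334 to 539 genes higher and 274 to 369 lower, and 4 to 6 listed genes higher and 1 to 2 lower. The causes were not tested. Of the 14 listed calls, 5 were kept in all 6 of these fits, 9 were lost in at least 1 and 6 in all. Without a filter Ctsl, Errfi1 and Osmr were not called, and without trend Ctsl, Errfi1, Spry2, Lifr and Osmr were not. Rescaling without short RNA, median-ratio scaling and array weights changed none of the 14 calls. The low TPM of Chil1 in WT and Penk in DKO limits their ratios. No paired analysis was possible because the groups share no replicate number.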
